A study of Mus musculus with 5 samples.

Results

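E proteins and Id proteins are opposing transcription factors of developing lymphocytes. The genes examined here were the 3 mouse genes that encode E proteins, Tcf3 (E2A), Tcf4 (E2-2) and Tcf12 (HEB), and the Id genes Id1, Id2 and Id3. They were chosen by family membership, with earlier results of these data known. Windows listed in the deposited ChIP-seq data were taken within 1 kb of every transcription start site (TSS) of these genes, and in the gene body plus 10 kb upstream. The 6 genes have 11 of the 31311 promoters of protein-coding genes in the annotation and are 6 of 22372 protein-coding genes. Tcf3 and Tcf4 have 3 promoters each, Tcf12 has 2 (P1 is the most upstream), and each Id gene has 1.

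The study mapped Cxxc1, a CpG-binding subunit of the Setd1 methyltransferase complexes, and the H3K4me3 histone mark of active promoters (trimethylation of lysine 4 on histone H3) in CD4+CD8+ (DP) thymocytes. It asked where Cxxc1 sits and how the mark differs when the cells lack it. WT mice were Cxxc1 fl/fl animals without Cre, and Cxxc1-deficient mice carried the same floxed alleles with hCD2-Cre. The floxed allele, made in ES cells of strain 129 and crossed onto C57BL/6, loses coding exons when Cre acts. The human CD2 promoter drives Cre from the early thymocyte stages and in other lymphocytes, so deletion starts before the DP stage. Titles call the deficient libraries KO whereas their genotype label reads Cxxc1+/-, and the titles were followed. The Cxxc1 table has no genotype of its own and was taken as WT from the study's methods. The Cxxc1 ChIP of deficient cells and the input were not analysed here.

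Each of the 3 tables came from 1 library, so differences between WT and Cxxc1-deficient cells lack any replicate check and p-values cannot be given. The tables list only windows of 200 bp inside called regions, with values in RPM (tags per M mapped tags), so a place that is not listed has an unknown value and not a value of 0. Neighbouring windows were joined into peaks, which gave 14237 WT H3K4me3, 2979 Cxxc1-deficient H3K4me3 and 4352 Cxxc1 peaks. The inferred depths were close, at 9.455 to 9.473 M tags in WT, 9.436 to 9.454 M in Cxxc1-deficient cells and 9.093 to 9.122 M for Cxxc1. Among DP thymocyte genes, 7 of 13 had a WT promoter window, including Cd8a, Cd8b1 and Lck, whereas Cd4, Rag1 and Rag2 did not. Of 19 genes typical of B cells, myeloid cells, erythroid cells or stroma, 3 had such a window (Ebf1, Cebpa and Klf1). More genes were listed in WT than in deficient cells in general. Of all genes, 31.1% had a WT promoter window and 5.86% a Cxxc1-deficient one. The main promoter counts below stand beside such shares.

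As background, E proteins are basic helix-loop-helix (bHLH) factors that pair with each other and bind the E box, a short DNA element. In thymocytes they drive the rearrangement and expression of antigen receptor genes and hold cells at checkpoints. Id proteins have the helix-loop-helix but no basic region, so they pair with E proteins and keep them off DNA. Signals from the pre-T-cell receptor and the T-cell receptor raise Id3 through Egr factors, which lets cells pass.

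The start sites differed widely in CpG content, the feature that the CXXC domain of Cxxc1 reads. Shown first are the 300 bases upstream of 5 promoters, read 5′ to 3′ on the strand of the gene (mm9), with every CG dinucleotide in capitals. The Tcf12 pair sets a CpG-dense promoter with a WT peak beside a CpG-poor one without. Tcf3 P1 and Id3 are promoters with a WT peak, and Id2 has many CG dinucleotides and no listed window. They lie at chr10:79896393-79896692 (Tcf3 P1, minus strand), chr9:71959627-71959926 (Tcf12 P1, minus strand), chr9:71743891-71744190 (Tcf12 P2, minus strand), chr12:25780958-25781257 (Id2, minus strand) and chr4:135699112-135699411 (Id3, plus strand).
Tcf3 P1: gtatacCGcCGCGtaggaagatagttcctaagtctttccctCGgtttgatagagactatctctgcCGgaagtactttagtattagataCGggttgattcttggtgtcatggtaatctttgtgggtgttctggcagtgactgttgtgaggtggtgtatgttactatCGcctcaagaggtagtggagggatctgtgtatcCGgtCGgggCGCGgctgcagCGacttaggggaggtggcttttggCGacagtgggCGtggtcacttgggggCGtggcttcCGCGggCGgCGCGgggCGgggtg
Tcf12 P1: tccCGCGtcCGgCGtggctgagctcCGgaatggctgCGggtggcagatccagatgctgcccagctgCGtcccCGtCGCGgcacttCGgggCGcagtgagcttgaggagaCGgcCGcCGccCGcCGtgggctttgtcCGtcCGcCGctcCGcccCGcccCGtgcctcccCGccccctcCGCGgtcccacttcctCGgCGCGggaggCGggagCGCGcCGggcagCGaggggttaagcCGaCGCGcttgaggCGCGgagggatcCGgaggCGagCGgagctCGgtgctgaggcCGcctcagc
Tcf12 P2: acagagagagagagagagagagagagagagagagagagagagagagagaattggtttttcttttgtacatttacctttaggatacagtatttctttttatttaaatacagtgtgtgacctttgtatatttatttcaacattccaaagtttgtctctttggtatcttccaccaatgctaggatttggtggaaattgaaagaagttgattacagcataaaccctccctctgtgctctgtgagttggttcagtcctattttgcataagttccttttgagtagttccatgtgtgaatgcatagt
Id2: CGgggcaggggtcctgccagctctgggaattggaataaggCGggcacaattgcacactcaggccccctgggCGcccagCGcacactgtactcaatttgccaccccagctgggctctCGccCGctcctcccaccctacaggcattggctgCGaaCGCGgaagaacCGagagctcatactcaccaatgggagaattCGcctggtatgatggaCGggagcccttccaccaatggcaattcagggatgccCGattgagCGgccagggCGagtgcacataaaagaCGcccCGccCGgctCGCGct
Id3: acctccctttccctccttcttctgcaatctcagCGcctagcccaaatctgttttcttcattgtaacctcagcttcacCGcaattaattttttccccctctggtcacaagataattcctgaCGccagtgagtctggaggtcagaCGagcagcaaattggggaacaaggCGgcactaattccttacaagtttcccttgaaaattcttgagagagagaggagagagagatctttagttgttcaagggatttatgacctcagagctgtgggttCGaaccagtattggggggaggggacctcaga

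These stretches held 21 CG dinucleotides in Tcf3 P1, 44 in Tcf12 P1, 0 in Tcf12 P2, 20 in Id2 and 6 in Id3. The E box, CANNTG, reads the same on both strands. Over the 300 bases it occurred 2 times in Tcf12 P1 and in Id2, 1 time in Tcf3 P1 and in Tcf12 P2, and 0 times in Id3. The form CAGCTG occurred 1 time each in Tcf12 P1 and Id2, and the form CAGGTG, which reads CACCTG on the other strand, in none of the 5. Of all 31311 promoters, 72.2% held a CANNTG, 14.4% a CAGCTG and 20.8% a CAGGTG in the same stretch, so such matches are common and describe only the letters.

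H3K4me3 was listed at 6 of the 11 promoters in WT DP thymocytes, where 26.0% of all promoters were listed. These were the 3 promoters of Tcf3, the upstream promoter of Tcf12 and the promoters of Id1 and Id3. Tcf4, the downstream promoter of Tcf12 and the promoter of Id2 were not listed. In Cxxc1-deficient cells 0 of the 11 were listed, against 4.73% of all promoters, and Cxxc1 itself was listed at 0 of the 11, against 1.55%. Of all WT-listed promoters, 88.1% were not listed in Cxxc1-deficient cells, so the 6 of 6 seen here is close to what the list as a whole shows.

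**Figure D1:**
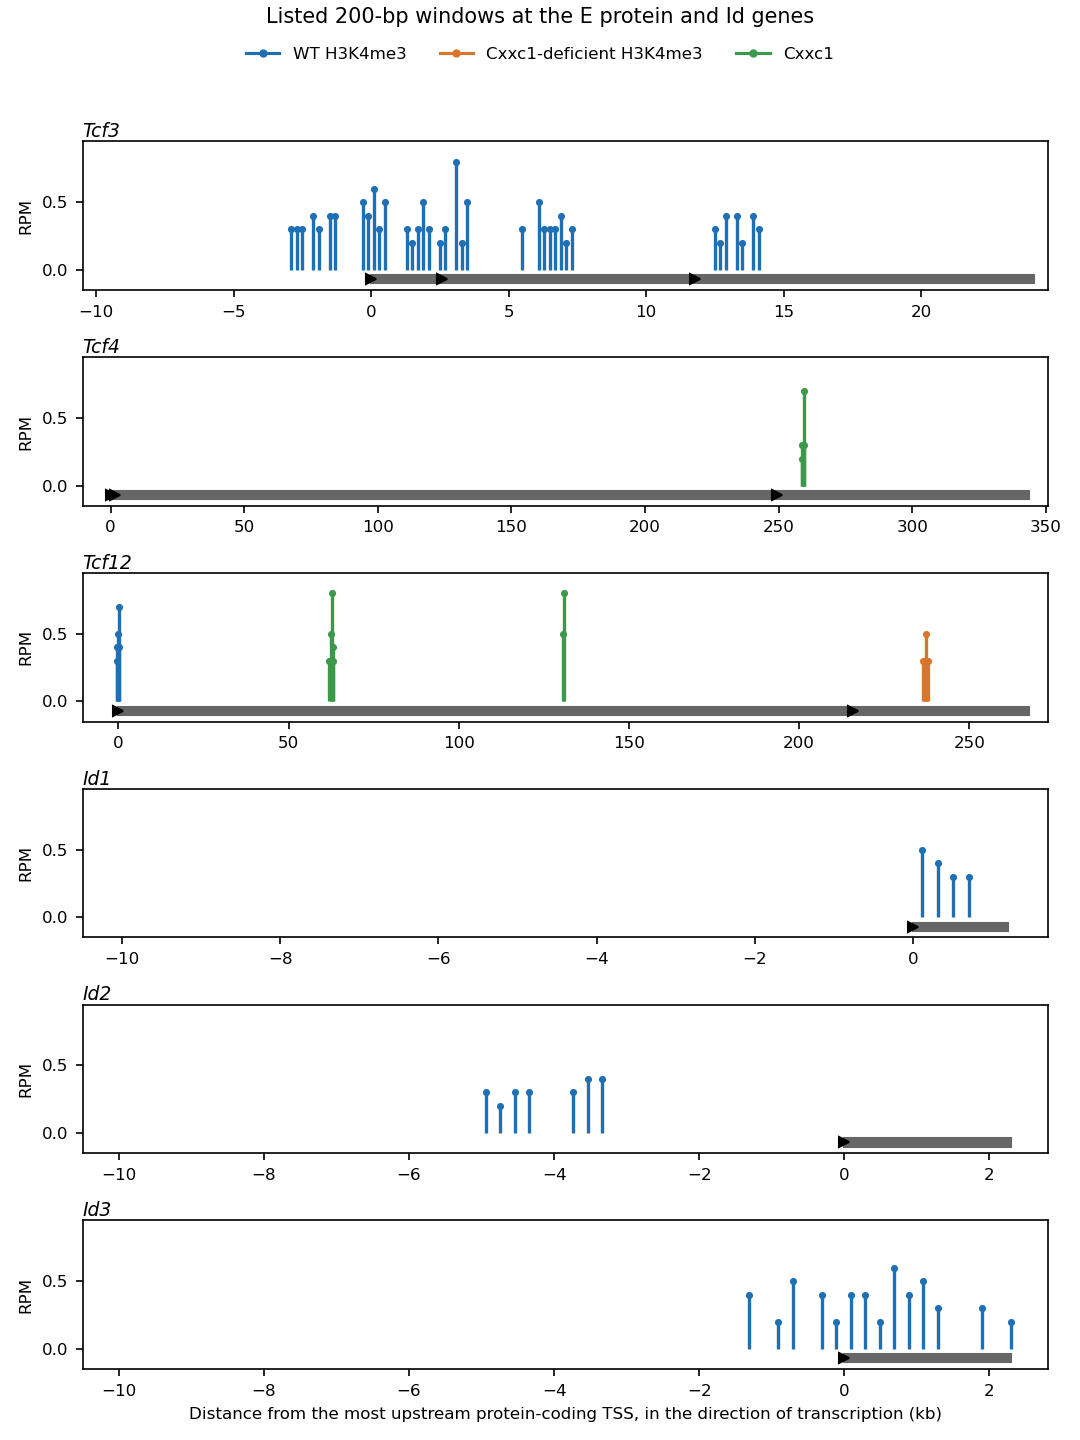
Listed windows in the body and 10 kb upstream of the 6 genes: x, distance from the most upstream TSS in the direction of transcription (kb); y, value of each 200-bp window (RPM), by list. The grey bar is the gene body and the arrowheads are promoters. Tcf3 carries WT windows at all 3 promoters, Tcf12 at the first promoter with Cxxc1 and Cxxc1-deficient windows far inside the gene, Tcf4 only Cxxc1 windows, and the Id genes only WT windows.

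Summed over the 1 kb either side of the TSS, the 6 listed promoters ranged from 0.5 to 3.8 RPM with a median of 2.3 RPM. All WT-listed promoters together had the same median of 2.3 RPM, with quartiles of 1.8 and 2.9 RPM. Id3 was highest, at 3.8 RPM or 38 tags (95% Poisson interval 26.9 to 52.2), followed by Tcf3 P2 with 3.3 RPM or 33 tags (22.7 to 46.3). Tcf3 P1 and Tcf12 P1 each had 2.3 RPM or 23 tags (14.6 to 34.5), Id1 had 1.5 RPM or 15 tags (8.4 to 24.7), and Tcf3 P3 had 0.5 RPM or 5 tags (1.6 to 11.7). In that order each interval overlapped that of its neighbour, while Id3 and Id1 did not overlap. The order depended on the distance taken: within 0.5 kb of the TSS Tcf3 P1 and Tcf12 P1 stayed at 2.3 RPM while Id3 and Tcf3 P2 had 1.6 RPM each, and within 2.5 kb Tcf3 P1 had 5.9 RPM and Id3 5.4 RPM. The intervals cover counting error only.

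**Figure D2:**
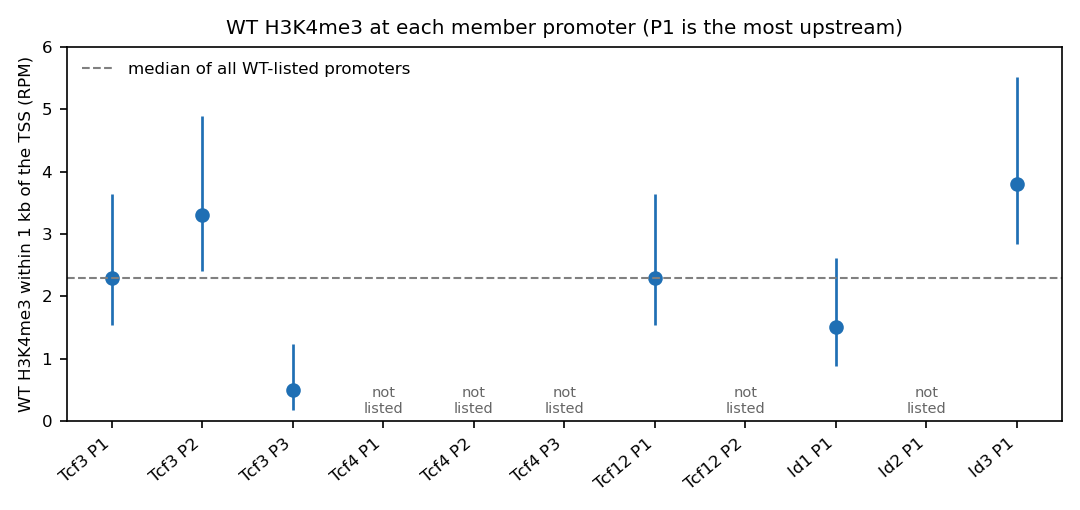
WT H3K4me3 within 1 kb of the TSS of each promoter (RPM), with 95% Poisson bars from the tag number. The dashed line is the median of all WT-listed promoters, 2.3 RPM. Id3 and Tcf3 P2 lie above it, Id1 and Tcf3 P3 below it, and 5 promoters were not listed.

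Tcf3, whose products E12 and E47 are the main E proteins of early lymphocytes, had more WT peaks than any other of the 6 genes. The gene (ENSMUSG00000020167.8) spans chr10:79872259-79896392 on the minus strand, 24.1 kb. It had 5 WT peaks in the gene body plus 10 kb upstream. They held 37 listed windows, a number of windows reached by 266 genes (1.19%). Listed windows covered 21.7% of that region (22.8% in the shorter region of Id3). The peaks summed to 13.1 RPM or 131 tags, which was the larger share of the 24.5 RPM of WT peaks at all 6 genes. The strongest peak, at chr10:79892801-79895200, held 3.6 RPM or 36 tags (25.2 to 49.8) over 2400 bp around P2. It was stronger than 85.6% of WT peaks.

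The peak at P1 (chr10:79895801-79896800) was narrower, 1000 bp, and held 2.3 RPM. Intron 5 of transcript Tcf3-002 carried a peak of 2.2 RPM or 22 tags (13.8 to 33.3), whose edge supplied the 2 windows within 1 kb of P3. A further peak of 2.6 RPM or 26 tags (17.0 to 38.1) lay in intron 3, and a peak of 2.4 RPM or 24 tags (15.4 to 35.7) lay upstream of the gene, centred at -2.11 kb from P1. Thus separate peaks lay across the first 14.09 kb of Tcf3 and the sequence just before it, and no window exceeded 0.8 RPM. Places between the peaks were not listed.

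In Cxxc1-deficient cells Tcf3 had no listed window in the gene body plus 10 kb upstream. The nearest peak lay 0.86 kb beyond the 3′ end of Tcf3 and within 1 kb of the start site of Uqcr11, a gene for a subunit of respiratory complex III. That peak held 2.5 RPM or 25 tags, and the WT windows listed within its span summed to 1.9 RPM or 19 tags. They were the edge of a wider WT peak. Cxxc1 was not listed within 100.06 kb of the Tcf3 region.

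Tcf12 encodes HEB, the partner of E2A in most E protein dimers of thymocytes. The gene (ENSMUSG00000032228.8) spans chr9:71692059-71959626 on the minus strand, 267.6 kb, and was the only member with windows in all 3 tables. The WT peak at P1 (chr9:71959201-71960200) held 2.3 RPM or 23 tags, and its 5 windows ranged from 0.3 to 0.7 RPM. No other WT peak lay in the region, and P2, the start of a shorter form, was 63.49 kb from the nearest WT window.

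The Cxxc1-deficient table had 1 peak in Tcf12, in intron 13 of 20 (chr9:71721801-71723400), 21.29 kb past P2. It held 2.0 RPM or 20 tags (12.2 to 30.9), at the median of 2.0 RPM for Cxxc1-deficient peaks, and no WT window was listed there. The 2 Cxxc1 peaks lay elsewhere, also in introns. The stronger, in intron 3 (chr9:71896401-71897800), held 2.3 RPM or 22 tags (13.8 to 33.3) and was stronger than 82.5% of Cxxc1 peaks. The weaker, in intron 5 (chr9:71828601-71829000), held 1.3 RPM or 12 tags (6.2 to 21.0) and was stronger than 0.965% of them. None of these peaks overlapped a peak of another table. The study reported such overlap for few Cxxc1 sites in general, so its absence here does not set Tcf12 apart.

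The highest 200-bp window of each Tcf12 Cxxc1 peak is printed below on the plus strand (mm9), again with CG in capitals, because Cxxc1 is known as a reader of unmethylated CG. The windows lie at chr9:71896801-71897000 (intron 3) and chr9:71828601-71828800 (intron 5), and each held 0.8 RPM or 7 tags.
Tcf12 intron 3: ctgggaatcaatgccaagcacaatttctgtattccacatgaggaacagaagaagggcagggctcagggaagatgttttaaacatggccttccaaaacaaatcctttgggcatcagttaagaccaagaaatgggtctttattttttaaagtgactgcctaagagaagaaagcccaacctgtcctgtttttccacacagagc
Tcf12 intron 5: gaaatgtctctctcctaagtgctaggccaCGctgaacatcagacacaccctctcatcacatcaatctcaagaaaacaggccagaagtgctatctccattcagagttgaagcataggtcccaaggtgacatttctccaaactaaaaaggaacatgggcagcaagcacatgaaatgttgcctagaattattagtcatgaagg

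The window in intron 3 had 0 CG dinucleotides and 43.0% GC, and that in intron 5 had 1 CG and 44.0% GC. Over the highest windows of all Cxxc1 peaks the median was 2 CG, and 16.0% had none. By contrast the highest window of the WT peak at Tcf12 P1 had 38 CG, against a median of 5 over WT peaks. Each Cxxc1 window had 1 CANNTG, which 68.2% of the highest Cxxc1 windows had, and no CAGCTG or CAGGTG.

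Tcf4 encodes E2-2, the E protein best known for plasmacytoid dendritic cells. The gene (ENSMUSG00000053477.9) spans chr18:69503800-69847621 on the plus strand, 343.8 kb. It had no H3K4me3 window in either genotype: the nearest WT window was 191.0 kb from P1, and the nearest Cxxc1-deficient peak lay 19.0 kb outside the region. Cxxc1 had 1 peak in intron 8 of 19 of transcript Tcf4-001 (chr18:69762401-69763600), 9.92 kb downstream of P3, with 1.8 RPM or 17 tags (9.9 to 27.2). Its highest window, 0.7 RPM or 6 tags, had 1 CG and 5 CANNTG.

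With Tcf12 and Tcf4, 2 of the 6 genes carried Cxxc1 within the body or the 10 kb upstream, against 11.1% of all genes. Both are long, and among the 954 genes of at least 200 kb 48.3% had such a peak. The 2 Cxxc1 peaks of Tcf12 held 7 listed windows, a number of windows reached by 706 genes (3.16%). No member of the Id family had one, where 2.9% of the 5854 genes of at most 5 kb did.

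Id3 encodes the Id protein that antigen receptor signals raise in thymocytes. The gene (ENSMUSG00000007872.3) is short, at chr4:135699412-135701670 on the plus strand. A single WT peak of 4000 bp (chr4:135698001-135702000) began with a window centred at -1.31 kb from the TSS and ran past the end of the gene. It held 5.4 RPM or 54 tags (40.6 to 70.5), more than 96.9% of WT peaks, and its 15 windows ranged from 0.2 to 0.6 RPM. The peak was therefore broad and not high at any window. The nearest Cxxc1-deficient peak, in E2f2, lay 31.53 kb outside the region with 2.6 RPM. It overlapped a stronger WT peak of 7.6 RPM or 76 tags, of which the windows within its span summed to 1.4 RPM. The nearest Cxxc1 peak was 22.41 kb outside and overlapped a WT peak of 2.6 RPM.

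Id1, an Id gene expressed mainly in progenitors and endothelium, had a small WT peak. The gene (ENSMUSG00000042745.9) lies at chr2:152561987-152563146 on the plus strand. Its 4 listed windows, of 0.5, 0.4, 0.3 and 0.3 RPM, all lay downstream of the TSS (chr2:152562001-152562800). They summed to 1.5 RPM or 15 tags, and the peak was stronger than only 2.86% of WT peaks. The nearest Cxxc1-deficient peak lay 51.06 kb outside the region, in Bcl2l1, a survival gene of DP cells, with 2.7 RPM. It overlapped a WT peak of 2.3 RPM, of which the windows within its span summed to 2.0 RPM.

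Id2, needed for innate lymphoid and natural killer cells and for effector CD8+ cells, was not listed at the promoter in either genotype. The gene (ENSMUSG00000020644.8) lies at chr12:25778666-25780957 on the minus strand. A WT peak (chr12:25784201-25786000) was centred at -4.14 kb from the TSS, outside any annotated protein-coding gene, with 2.2 RPM or 22 tags (13.8 to 33.3). Past the 3′ end, 5 more WT windows of 0.3 to 0.5 RPM lay between 2.86 and 3.66 kb from the TSS. WT windows thus stood on both sides of Id2 without reaching the 1 kb around the start. The nearest Cxxc1-deficient peak was 21.84 kb outside the region and Cxxc1 305.84 kb.

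Between genotypes, the 6 genes had 9 WT peaks and 1 Cxxc1-deficient peak, where the whole lists held 14237 and 2979. The 1 deficient peak, in Tcf12, was not at a WT place. Among the 954 genes of at least 200 kb, 21.8% had a Cxxc1-deficient peak and 44.4% a WT peak in the same kind of region. The share of all deficient peaks away from WT peaks is not given here. A loss of signal and a fall below the calling limit cannot be told apart in these tables, nor can fewer cells with the mark and less of it per cell. The promoters listed in Cxxc1-deficient cells had a median of 1.8 RPM, with 85.9% of them at or below 2.3 RPM, the value of Tcf3 P1 and Tcf12 P1, and 99.6% at or below the 3.8 RPM of Id3. The WT value of Id3 was thus near the upper end of the values listed in Cxxc1-deficient cells, where Id3 itself was not listed. RPM is scaled to the tags of each library, so the values of the genotypes need not share a scale. The study's ELISA found less total H3K4me3 in Cxxc1-deficient DP cells, which RPM does not carry. Among the 7598 WT-listed promoters between 0.5 and 3.8 RPM, 11.4% were also listed in Cxxc1-deficient cells. Among the 466 with at least the value of Id3, 22.1% were.

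**Figure D3:**
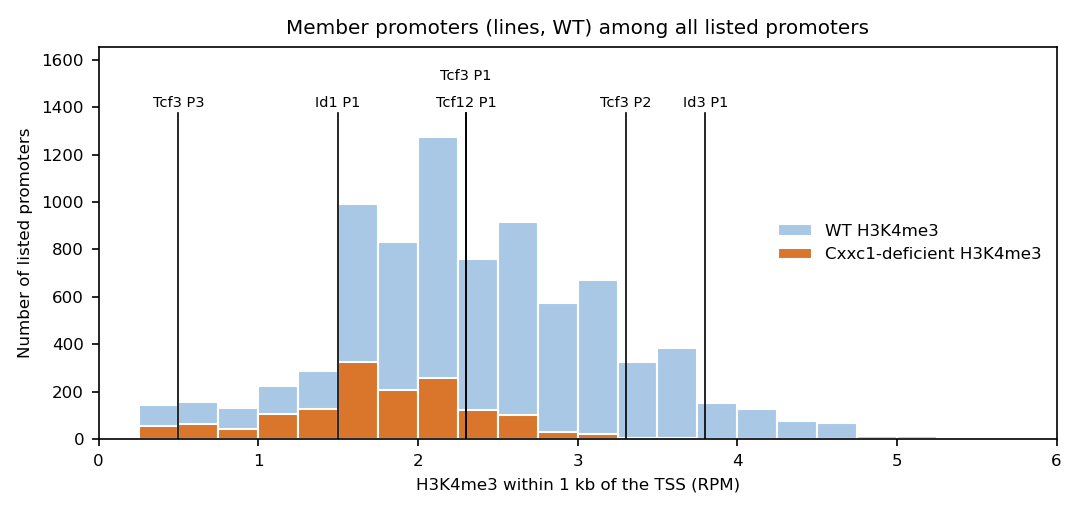
Distribution of promoter values (RPM within 1 kb of the TSS) over all listed promoters in WT and in Cxxc1-deficient cells, with lines at the 6 WT-listed promoters of E protein and Id genes. The lines span 0.5 to 3.8 RPM, and the highest, the WT value of Id3, lies near the upper end of the Cxxc1-deficient values. RPM is scaled within each library. None of the 6 was listed in Cxxc1-deficient cells.

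CpG content differed between the listed promoters. In the 1 kb around the TSS, Tcf12 P1 had 129 CG dinucleotides and Tcf3 P1 had 98, both above the median of 66 for WT-listed promoters. Id1 and Id3 had 45 each. Tcf3 P2 had only 8 and Tcf3 P3 had 12, and both were listed, although of all promoters with fewer than 10 CG 1.8% were WT-listed and of those with 10 to 29 CG 10.7%. Id2, with 57, and the Tcf4 promoters, with 35 to 46, were not listed, in a class (30 to 59 CG) of which 35.5% were. In that class 2 of the 6 promoters, those of Id1 and Id3, were listed, a share near the background. Tcf12 P2, with 4, was not listed either. Over all promoters the listed share rose with each class, to 60.4% at 100 CG or more. Tcf3 P2 was thus listed in the class with the smallest listed share, whereas P3 was listed only through the edge of the intron peak and had no window within 0.5 kb.

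**Figure D4:**
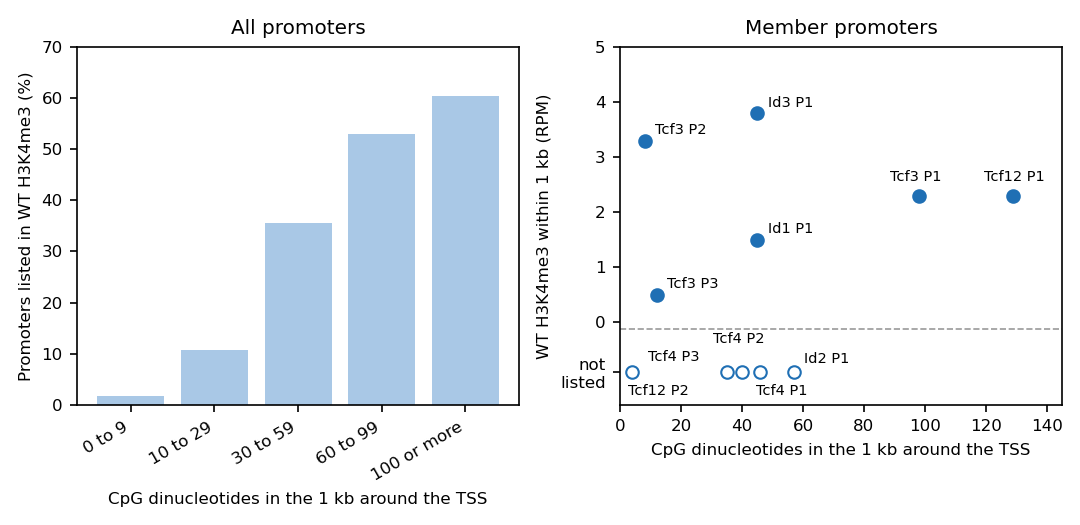
Left, share of all promoters listed in WT H3K4me3 (%) by number of CG dinucleotides in the 1 kb around the TSS. Right, the 11 promoters of E protein and Id genes by that number and by WT value (RPM), with promoters that were not listed as open circles below the dashed line. Tcf3 P2 and P3 were listed with 8 and 12 CG, and Id2 was not with 57.

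Other genes of the pathway were taken from 3 lists and counted by gene, for which the background was 31.1% with a WT promoter window, 5.86% with a Cxxc1-deficient one and 1.96% with a Cxxc1 one. By the same count, 4 of the 6 E protein and Id genes had a WT window and 0 a Cxxc1-deficient one. Of 16 partners and regulators of E and Id proteins, 11 had a WT window and 3 of these also a Cxxc1-deficient one, while over all WT-listed genes 87.2% had none. RPM values of list genes, here and below, were the highest over the promoters of a gene, taken apart for each genotype. The WT and deficient values of a gene can thus come from different promoters. Notch1, the receptor that commits cells to the T lineage, had 4.6 RPM in WT cells and 1.9 RPM in deficient cells. Its 2 deficient peaks were centred 12.68 and 26.78 kb inside the gene. Egr1, which raises Id3, had 3.3 and 1.9 RPM. Cbfa2t3, a corepressor bound by E proteins, had 2.7 and 0.3 RPM. The 0.3 RPM was 1 window, and the 1 deficient peak of the region, of 2.9 RPM, was centred 23.01 kb inside the gene.

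In the same list the coactivator gene Ep300 had 5.0 RPM in WT and was not listed in Cxxc1-deficient cells. Id4, the remaining Id gene, was not listed in any table. Cxxc1 was listed at no promoter of this list, but in the body or the 10 kb upstream of 6 of the 16 (Egr1, Lmo2, Cbfa2t3, Hes1, Crebbp and Lyl1), against the 11.1% of all genes. The list was not matched for gene length, and among genes of at least 50 kb the share was 27.0%. The peaks of Cbfa2t3 and Lyl1, centred at -10.59 and -10.36 kb, reached the region only with an edge. The Egr1 peak, 1.6 RPM or 15 tags, was centred at -6.16 kb from the TSS.

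Of 10 genes known to be controlled by E proteins in thymocytes, 5 had a WT promoter window, 4 a Cxxc1-deficient one and 3 both. Socs1, an inhibitor of cytokine signalling, had 5.4 RPM in WT cells and 3.5 RPM in deficient cells. Foxo1, a transcription factor of T-cell homeostasis, had 4.4 and 2.1 RPM. Socs3 had 2.5 and 0.7 RPM, the latter from 1 window. The chemokine receptor gene Cxcr4 had 4.8 RPM and was not listed in Cxxc1-deficient cells. Rag1, the recombinase gene, was listed only in Cxxc1-deficient cells, at 0.7 RPM. Cxxc1 was listed in the body or the 10 kb upstream of 0 of the 10, against 11.1% of all genes. This list was not matched for gene length either, and among genes of at most 5 kb the share was 2.9%.

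The 26 class II bHLH genes of other tissues, whose products also pair with E proteins, had 3 WT promoter windows (Hand1 with 1.4, Neurod2 with 1.0 and Neurog2 with 0.9 RPM) and 0 Cxxc1-deficient ones. Cxxc1 was listed at the promoters of Neurod2, Scx and Neurog1 (3 of 26, against 1.96% of all genes) and inside Twist2. The Neurod2 peak held 2.8 RPM or 26 tags.

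**Figure D5:**
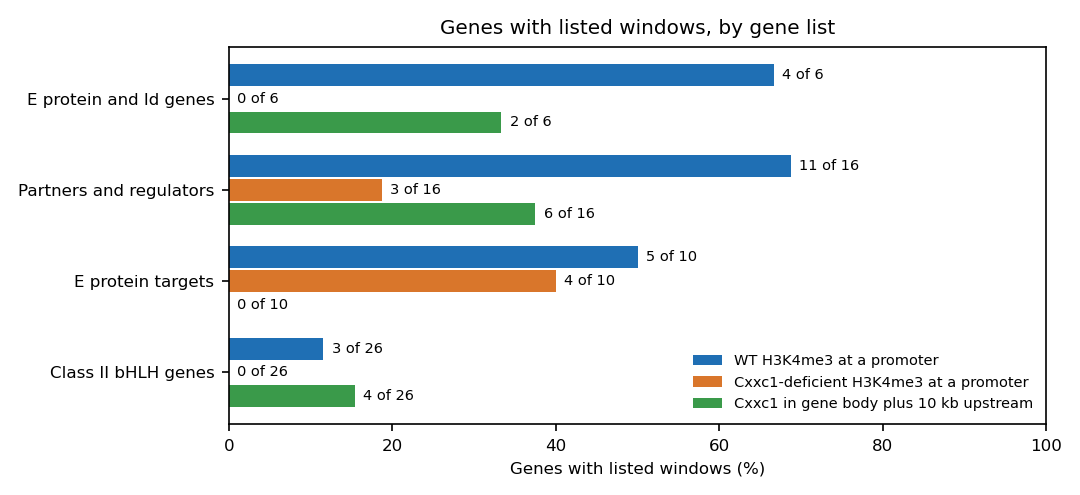
Number of genes in each list with a WT H3K4me3 promoter window, a Cxxc1-deficient H3K4me3 promoter window, and a Cxxc1 peak in the gene body plus 10 kb upstream. E protein and Id genes had 4, 0 and 2 of 6, and E protein targets had 5, 4 and 0 of 10.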

How the data were processed

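DP thymocytes were profiled by ChIP-seq with 1 library per antibody and genotype. Per the study's methods, uniquely mapped 50-bp reads on mm9 were called with SICER 1.1, with the Cxxc1-deficient ChIP and input as controls. The submitters' processing notes also name CASAVA 1.8.2. The aligner, the control used for H3K4me3 and the handling of duplicates are not given in the sources used here, although the set of listed windows depends on them. Files deposited by the authors hold the 200-bp windows of called regions, each with RPM to 1 decimal.

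Here, windows at most 2 missing windows apart were joined into peaks. The value of 1 tag (0.10556 to 0.10576 RPM in WT, 0.10578 to 0.10598 in Cxxc1-deficient cells, 0.10962 to 0.10998 for Cxxc1) was inferred from which decimals occur, and tags carry exact 95% Poisson intervals. RPM was summed over listed windows. A window counted at a promoter where it overlapped 1 kb either side of a TSS by at least 1 bp, with TSSs within 0.5 kb joined. Genes were protein-coding transcripts of the GENCODE annotation on the assembly of mm9, which also gave the sequences. Gfi1 and Ptcra were not found among them. Python 3.11.15, numpy 2.4.6, pandas 2.3.3, scipy 1.17.1 and matplotlib 3.10.9 were used, and the functions were tested on simulated data.

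The genes and lists were chosen with earlier results of these data known. Named were the 6 genes and, from the lists, genes with a Cxxc1 peak, a Cxxc1-deficient promoter window or among the 3 highest WT values. Cd4, Rag2, Id4 and the neighbouring genes Uqcr11, E2f2 and Bcl2l1 were named besides, after their values were seen. Genes most like a promoter in at least 2 of the 3 tables could not be named, since no promoter had 2 values. Alternatives were promoters of 0.5, 2.5 and 5 kb, at least 3 windows, the stronger 50% of peaks, all transcripts, TSSs within 2 kb joined, 50% peak overlap, 0 and 50 kb upstream, and peaks joined over 5 missing windows. No tests were run.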

Additional observations from a re-analysis of the deposited data

How the results depend on the processing

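Of 46 values under the alternatives, 34 stayed close to the value reported. No Cxxc1-deficient window came to lie at a promoter of the 6 genes under any of them. With the stronger 50% of peaks, 3 promoters were WT-listed in place of 6, and the genes had 5 WT peaks in place of 9 and 0 Cxxc1-deficient peaks in place of 1. With 50 kb upstream they had 17 WT and 3 Cxxc1-deficient peaks. Within 0.5 kb of the TSS, Id3 had 1.6 RPM, Tcf3 P2 1.6 RPM and Tcf3 P3 no listed window (0.0 RPM), so that Tcf3 P1 and Tcf12 P1, at 2.3 RPM, were highest. Within 2.5 kb, Id3 had 5.4, Tcf3 P1 5.9, Tcf3 P2 5.0 and Tcf3 P3 2.2 RPM, since neighbouring peaks of Tcf3 then count for several promoters. No paired analysis was possible because there was 1 library per group. Peaks of about 23 tags bear wide counting intervals, and a promoter just under the calling limit is not listed at all.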
